A study of Mus musculus with 4 samples.

Results

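Oxidative phosphorylation genes were taken as every feature whose symbol starts with Nduf, Sdh, Uqcr, Cox4 to Cox8, Atp5, mt-Nd, mt-Co, mt-Cytb or mt-Atp. This gave 110 of the 31054 features: 97 nuclear rows and 13 rows of the mitochondrial genome, written with the prefix mt-. Of the nuclear rows, 82 are structural subunits: 7 core and 29 accessory subunits of complex I, 4 subunits of complex II, 8 of complex III, 18 of complex IV and 16 of ATP synthase. The other 15 match a prefix but are mostly assembly factors. Symbols are unique except Atp5o, which has 2 IDs, so that the nuclear rows carry 96 symbols. The rule uses names only and no measured value, but it was set with earlier results of these data known.

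Complexes I to IV pass electrons from NADH and succinate to oxygen and pump protons across the inner mitochondrial membrane, and ATP synthase uses the gradient to make ATP. Most subunits are encoded in the nucleus and imported. A few of complexes I, III, IV and ATP synthase are encoded by mitochondrial DNA, which is transcribed as long polycistronic RNAs that are cut and polyadenylated. In the intestine, absorptive cells are rich in mitochondria, whereas Paneth cells at the crypt base are known for glycolysis.

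RNA of single cells was counted by droplet sequencing (10x Chromium, 3′ ends, version 3 chemistry) in 4 libraries, 1 for each group. All groups carry Bmi1-GFP, a reporter of the Polycomb gene Bmi1, and all are labelled as intestinal epithelial cells, sorted for Bmi1 expression. The groups are embryos of day 12.5 (E12.5), embryos of day 17.5 (E17.5), adults, and adults that were irradiated. The labels used here give no radiation dose, time after irradiation, sorting gate, sex, exact adult age or number of animals, and do not say whether animals were pooled. With 1 library in each group there is no spread between replicates, so no test was made and no p-value is given. Any difference below is between libraries, and group, animal and library preparation cannot be told apart.

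A unique molecular identifier (UMI) stands for 1 captured RNA molecule. The libraries held 38648331 to 90674425 UMIs, with a median per barcode of 2847 UMIs for adult, 3783 for irradiated, 9715.5 for E17.5 and 15049 for E12.5. Cells with at least 500 genes and at most 20% mt- UMIs were kept, which passed 53.1% of the irradiated barcodes, 60.3% of the adult, 81.0% of the E12.5 and 88.0% of the E17.5 ones. After removal of putative doublets 4050, 4409, 3597 and 3031 cells remained. Pairs of libraries shared 6 to 12 barcode sequences, at most 0.230% of the smaller library. Because the filter uses the mt- share, it caps every mt- level below, and 39.8% of irradiated barcodes lay over its limit, against 31.3% of those of the adult, 15.5% of E12.5 and 10.6% of E17.5.

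Cells were clustered without any member or mt- gene, so that the members did not define the clusters, and clusters were named from marker lists as enteroendocrine-like (hormone-secreting), tuft-like (chemosensory) and so on. The epithelial label held for most clusters, but not for all of the E17.5 library: 532 of its cells were pancreatic acinar-like, 141 islet-like, 217 mesenchymal-like and 44 smooth muscle-like. These were left out of the epithelial comparisons. Markers of such cells remained in part: in E17.5 enteroendocrine-like cells pancreatic acinar markers took 0.222% of UMIs and islet markers 0.402%. In adult enteroendocrine-like cells they took 0.015% and 0.096%. An E17.5 enteroendocrine-like cluster of 260 cells was led by Sst, Pyy, Gast and Ppy. The islet list holds Ppy but not Sst, and whether these cells are intestinal or pancreatic was not determined. The part of pancreatic cells in the ratios was not tested. Epithelial cells outside the enteroendocrine-like and tuft-like classes are called other epithelial cells. At E17.5 they include clusters of 146 and 119 cells without a lineage name. The first was led by Spp1 and Akr1b7, the second by Spp1 and Neurog3. No marker list for pancreatic duct was used, so whether these cells are intestinal was not determined. Other epithelial cells are not the same mixture in each library. Paneth markers (9 genes) took 21.9% of their UMIs in the irradiated library, 13.1% in the adult and 0.029% at E17.5. At E12.5 only 2 of the 9 were detected. Enterocyte markers (13 genes) took 0.985% at E17.5, 0.830% in adult cells, 0.280% in irradiated cells and 0.034% at E12.5.

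Summed over the members, nuclear and mt- genes followed different orders across libraries. In other epithelial cells nuclear members of E12.5 took 2.55% of all UMIs, those of E17.5 5.42%, those of the adult 4.42% and those of irradiated adults 2.00%. The mt- members took 4.66%, 4.90%, 9.03% and 4.22% in the same order. The nuclear share was thus highest at E17.5 and the mt- share in the adult. In enteroendocrine-like cells nuclear members took 2.81% (E17.5), 1.94% (adult) and 2.14% (irradiated), while mt- members took 2.51%, 6.11% and 5.09%. For every nuclear UMI there were thus 0.892 mt- UMIs at E17.5 and 3.15 in the adult.

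Within a library the cell classes spanned a wide range. Adult enterocyte-like cells had the highest nuclear share of any named class, 7.40% (57 cells), and adult Paneth-like cells had 1.43% (226 cells). The latter share was 1.13% in a cluster of 80 cells (median 34732.5 UMIs) and 4.66% in a cluster of 146 cells (median 1912.5 UMIs). Adult crypt stem-like cells were at 5.50% and tuft-like cells at 3.99%. The mt- share was highest in adult tuft-like cells, 13.1%, followed by irradiated tuft-like cells with 12.9% (15.0% without clusters that also held enteroendocrine markers) and adult enterocyte-like cells with 12.4%. At E17.5 the nuclear share was 6.28% in enterocyte-like, 5.18% in crypt stem-like and 4.68% in goblet-like cells. The acinar-like, islet-like and mesenchymal-like cells of that library lay between 3.12% and 3.21%. Irradiated Paneth-like cells were lowest on both counts, with 0.501% nuclear and 0.972% mt- UMIs in 92 cells whose median depth was 99299 UMIs. Exact 95% intervals of these sums are narrow, at 7.36% to 7.43% for adult enterocyte-like cells, and cover counting error only.

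**Figure D1:**
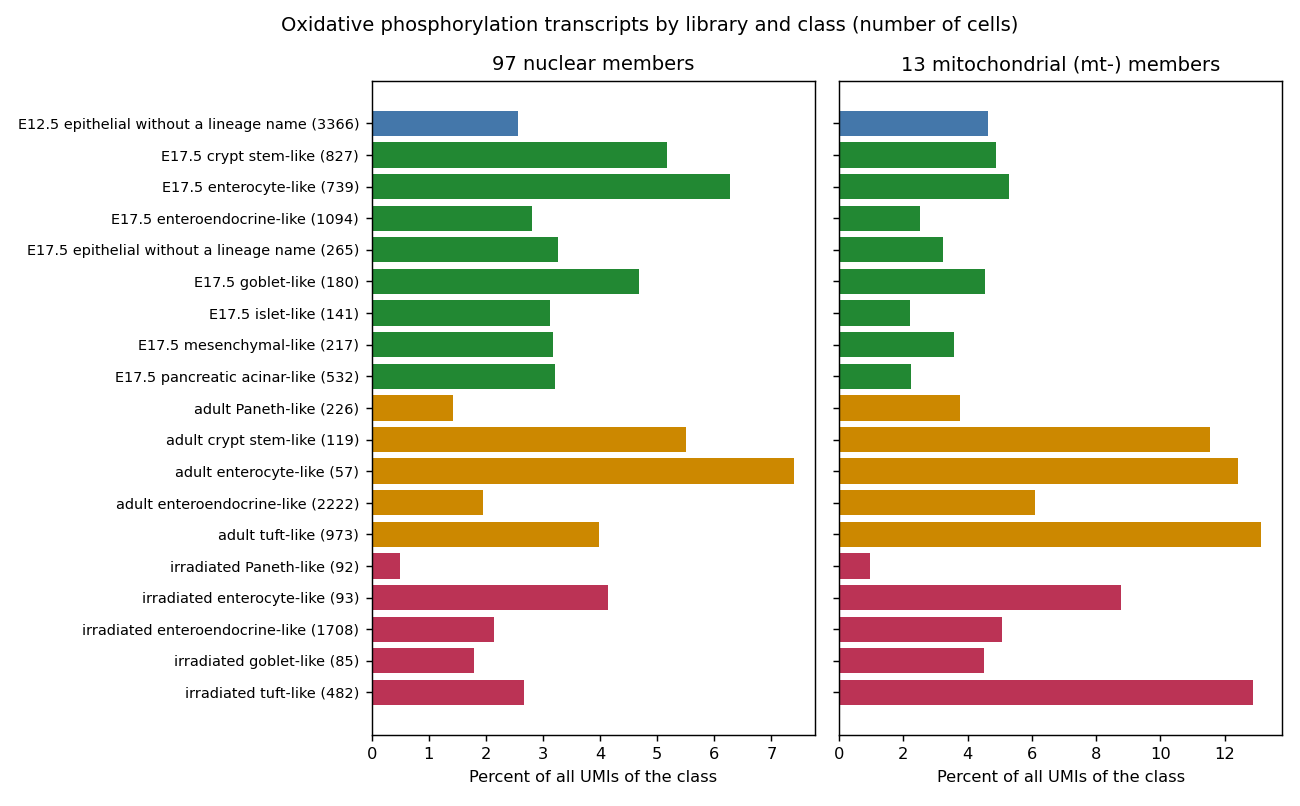
Percent of all UMIs taken by nuclear (left) and mt- (right) oxidative phosphorylation genes in each cell class of each library; bars start at 0 and each is 1 class of 1 library. Adult enterocyte-like cells show the highest nuclear bar (7.40%), tuft-like cells of both adult libraries the highest mt- bars (13.1% and 12.9%), and irradiated Paneth-like cells the lowest of both.

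The developmental comparison set other epithelial cells of E17.5 (2011 cells) beside those of E12.5 (4039 cells). Nearly every nuclear subunit was higher at E17.5, by a median of 1.00 on a log2 scale, while mt- genes as a group were not. Levels are UMIs of a gene per 1e+06 UMIs (CPM) of the summed cells, and ratios are log2((CPM + 1)/(CPM + 1)). Of 91 nuclear members with at least 50 UMIs in either group, 87 had a ratio over 0, 77 were at least 1.5-fold higher and 2 at least 1.5-fold lower. Among all 13787 features treated alike, 19.7% were 1.5-fold higher and 38.0% lower, and their median ratio was -0.34. Genes named as highest or lowest of a group, here and in the later comparisons, are those with at least 200 UMIs in the higher group. The 6 nuclear rows without a value were Cox4i2, Cox7b2, Cox6a2, Cox8b, Cox8c and the second ID of Atp5o. The edgeR TMM scaling moved the median of all features by 0.27, giving 26.2% higher and 27.0% lower, and moved the nuclear median to 1.31.

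All 7 nuclear core subunits of complex I, which hold its flavin and iron-sulfur clusters or neighbour them, were at least 1.5-fold higher at E17.5, with a median of 1.04. Ndufs7, which carries the last iron-sulfur cluster before ubiquinone, had the highest ratio: 198 CPM at E12.5 and 581 CPM at E17.5, a log2 ratio of 1.55 with a 95% interval of 1.52 to 1.58. Ndufs1, the largest core subunit, had the lowest, with 52.6 and 87.9 CPM and a ratio of 0.73. Of the 29 accessory subunits 27 passed 1.5-fold, all higher. Ndufv3 was highest among them, at 92.1 CPM and then 366 CPM (1.98). Ndufa12 was lowest, at 342 and 437 CPM (0.35).

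All 4 subunits of complex II, succinate dehydrogenase, were higher by over 1.5-fold. Its iron-sulfur subunit Sdhb went from 146 to 436 CPM (1.57) and its flavoprotein Sdha from 110 to 174 CPM (0.65). Complex III had the highest median of any group, 1.38, and all 8 of its nuclear subunits passed. Uqcrq, a small subunit (chromosome 11, 53427922 to 53430831, minus strand), had 228 CPM at E12.5 and 960 CPM at E17.5, a log2 ratio of 2.07 with an interval of 2.05 to 2.10. The core protein Uqcrc1 was lowest there, at 147 and 317 CPM (1.10).

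Complex IV, cytochrome c oxidase, had a median of 1.29 over the 13 of its 18 members with a value. It held the highest and the lowest ratio of any structural subunit, both in minor isoforms. Cox7a1, the isoform of subunit 7a best known from heart and muscle (chromosome 7, 30184144 to 30186078, plus strand), had 2.15 CPM at E12.5 and 14.4 CPM at E17.5, a ratio of 2.29. Without the added 1 CPM its interval is 2.51 to 2.99. Cox6b2, the isoform of subunit 6b best known from testis (chromosome 7, 4751792 to 4753094, minus strand), had 8.94 and then 5.46 CPM (-0.62). In ATP synthase 13 of 15 members with a value passed, all higher, with a median of 1.03. Atp5g1, which encodes the ring-forming c subunit, led with 571 and 1871 CPM (1.71), and Atp5b, the catalytic beta subunit, was lowest with 832 and 1126 CPM (0.44). The assembly factors and other prefix matches had a lower median, 0.58: 7 of 15 were higher and 1 was lower. The complex I assembly factors Ndufaf8 (54.9 and 144 CPM, 1.38) and Ndufaf2 (88.8 and 48.9 CPM, -0.85) marked their range.

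**Figure D2:**
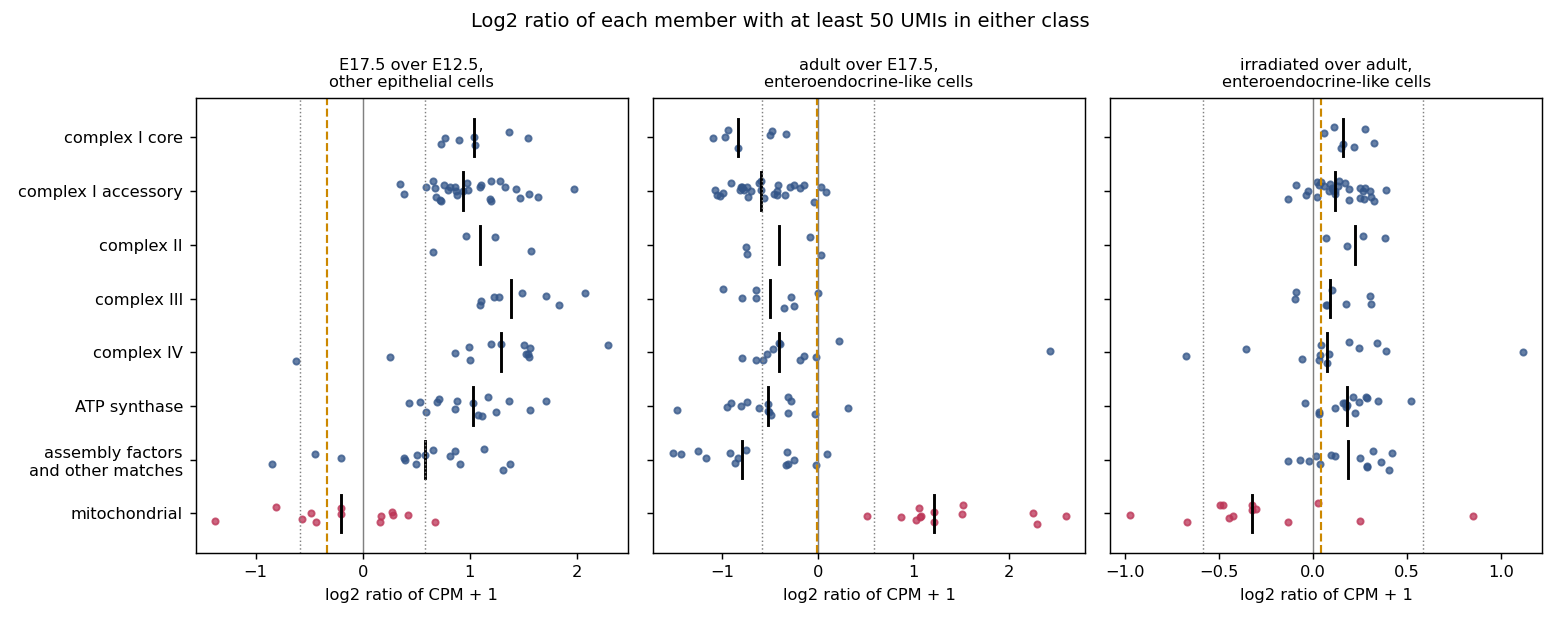
Log2 ratio of each member (points) by role in the 3 main comparisons, with the role's median (black bar), the median of all features (dashed) and 1.5-fold limits (dotted). Medians of the structural roles lie above the upper limit in E17.5 over E12.5, below the dashed line in adult over E17.5 enteroendocrine-like cells and close to it in irradiated over adult ones (all nuclear members 1.00, -0.54 and 0.15), while the mt- genes (red) have medians of -0.21, 1.22 and -0.33.

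The E17.5 cells that carry this difference are of several types, and its size varied among them. Set beside the same E12.5 cells, the nuclear median was 1.17 in enterocyte-like cells (77 of 90 higher), 0.97 in crypt stem-like cells (73 of 90) and 0.82 in goblet-like cells (64 of 90), where 19.6%, 15.2% and 16.3% of all features were higher. It was 0.41 in epithelial cells without a lineage name (24 of 90 higher, where 22.6% of all features were). In enteroendocrine-like cells it was 0.16, with 22 of 90 higher and 14 lower where 27.3% and 34.2% of all features were, so that in the last 2 classes the count of higher members was near or below that of all features. All these share the E12.5 library, so they are not independent. Crypt stem markers took 0.018% of UMIs in the E12.5 cells and 0.036% in E17.5 other epithelial cells. Enterocyte markers took 0.034% and 0.985%. The part of cell type in the difference was not tested further.

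The 13 mt- genes had a median of -0.21 in this comparison, which was 0.11 under TMM scaling, so their direction as a group depends on the scaling. Only mt-Nd4 was 1.5-fold higher, and mt-Nd3 and mt-Co1 were lower. mt-Nd4, a membrane subunit of complex I, had 3092 CPM at E12.5 and 4935 CPM at E17.5 (0.67). mt-Nd3, a small subunit of complex I, had 662 and 254 CPM (-1.38). mt-Co1, the catalytic subunit of complex IV, had 4740 and 2709 CPM (-0.81). The other 10 ratios lay between -0.57 (mt-Nd2) and 0.42 (mt-Cytb, the cytochrome b of complex III).

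Among other genes of energy metabolism, those of the mitochondrion had lower medians than the subunits, and glycolysis had a median under 0. Their lists were chosen by name, also with earlier results of these data known. Of 15 regulators of mitochondrial biogenesis 6 were higher and 2 lower (median 0.20). The coactivator Ppargc1b had 2.18 CPM at E12.5 and 23.6 CPM at E17.5 (2.95), and the nuclear receptor Esrra had 15.8 and 64.8 CPM (1.97). Nrf1, a transcription factor of respiratory genes, had 45.3 and 21.8 CPM (-1.02), and the coactivator Pprc1 had 28.2 and 11.95 CPM (-1.17). Cytochrome c and complex IV assembly genes had a median of 0.82, with 12 of 16 higher and none lower. The copper chaperone Cox17 led them with 33.1 and 178 CPM (2.40), followed by Cox14 (1.40), and Coa7 (-0.10) and Cox18 (-0.11) were lowest. In the citric acid cycle 11 of 16 were higher and none lower (median 0.72), from Suclg1 (238 and 584 CPM, 1.29) and Pdha1 (1.09) down to Pdhb (0.20) and Idh3a (-0.24).

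Of 18 glycolysis genes 2 were higher and 6 lower at E17.5, with a median of -0.11. These counts are no larger than the shares of all features, 19.7% and 38.0%, would give. Hexokinase 2, Hk2, had 104 CPM at E12.5 and 6.34 CPM at E17.5 (-3.84), and Eno1, an enolase, had 285 and 16.98 CPM (-3.99). The value of Eno1 is uncertain, since reads can be shared with its near-identical copy Eno1b. The phosphofructokinase Pfkp had 2.16 and 46.5 CPM (3.91), and the aldolase Aldoc had a ratio of 1.39.

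Promoters of the nuclear members were read for motifs of 4 factors known to bind respiratory genes. RefSeq windows (GRCm38.p6, 250 bases before to 50 after the start of the gene) were found for 80 of the 96 symbols, Uqcrq not among them. The NRF1 motif (GCGC and TGCGC with any 1 base between them, on either strand) stood in 21 of them (26.2%), against 5.19% of all 27025 RefSeq genes and 11.1% of the 10554 that had a value in the comparison. The ETS family motif CCGGAAG, bound by GABPA among others, also stood in 21, against 9.93% and 19.3%. The YY1 motif (AANATGG followed directly by CNGC) stood in 10 (12.5%, against 2.08% and 4.11%) and the ESRRA motif TNAAGGTCA in 3 (3.75%, against 1.43% and 0.966%). A match is a string of letters, not a bound site. In each complex, the window of the member with the highest E17.5 ratio among those with a match before the start is given, with capitals marking the matches (NRF1 in Ndufa5, NRF1 and ETS in Sdhd, ETS in the others) and 25 bases on each side where the window allows.
Ndufa5: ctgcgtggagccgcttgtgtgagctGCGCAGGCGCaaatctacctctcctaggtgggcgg
Sdhd: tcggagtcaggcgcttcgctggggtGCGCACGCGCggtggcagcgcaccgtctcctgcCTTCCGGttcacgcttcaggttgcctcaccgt
Uqcr11: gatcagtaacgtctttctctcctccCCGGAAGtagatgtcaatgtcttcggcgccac
Cox6b1: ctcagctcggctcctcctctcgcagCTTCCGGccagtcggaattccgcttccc
Atp5l: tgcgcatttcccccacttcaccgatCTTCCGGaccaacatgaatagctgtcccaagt

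All 5 are printed 5′ to 3′ on the strand of the gene, which is the minus strand in each case. Ndufa5, an accessory subunit of complex I, lies at chr6:24527682-24527741, and its match starts 190 bases before the RefSeq start. RefSeq starts can differ from the GENCODE gene bounds: the windows of Ndufa5 and Cox6b1 lie inside the GENCODE genes. Sdhd, a membrane anchor of complex II, lies at chr9:50603864-50603953 (79 bases), and Uqcr11 of complex III at chr10:80406856-80406912 (66 bases). Cox6b1 of complex IV lies at chr7:30626115-30626167 (28 bases) and Atp5l, the g subunit of ATP synthase, at chr9:44920923-44920979 (212 bases). Their E17.5 ratios were 1.47, 1.23, 1.71, 1.54 and 1.57. Members with an NRF1 match had a median ratio of 0.82 (21 genes) and those without had 1.08 (57 genes). For the ETS motif the medians were 0.99 and 1.03, for YY1 1.03 (10 genes) and 1.01 (68 genes), and for ESRRA 1.23 (3 genes) and 1.00 (75 genes). The NRF1 medians were the furthest apart, with the lower value in the members that hold the motif.

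The second comparison set enteroendocrine-like cells of the adult (2222 cells) beside those of E17.5 (1094 cells). Here the nuclear and mt- genes went apart: nuclear members were lower in the adult by a median of -0.54, and mt- members were higher by a median of 1.22. Of 89 nuclear members with a value 8 had a ratio over 0, 42 were 1.5-fold lower and 1 was 1.5-fold higher. Among all 11173 features 22.0% were higher and 23.1% lower, with a median of -0.00. Of the mt- genes 13 of 13 had a ratio over 0, 12 passed 1.5-fold and mt-Atp8, a short subunit of ATP synthase, did not.

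Depth differed with this result. Of the adult enteroendocrine-like cells 56.7% (1259) came from 3 clusters whose median was under 3500 UMIs, and E17.5 had none. In these clusters mt- genes took 10.4% to 13.5% of UMIs and nuclear members 0.972% to 1.24%. The other adult enteroendocrine-like clusters had 3.73% to 5.61% and 1.99% to 2.54%. Without the 3 clusters the nuclear median was -0.37 with 23 members lower, and the mt- median was 0.61. The share of all features that were lower was not computed without them, so the count of 23 has no such value beside it. With all clusters that share was 23.1%. The part of cell condition in either value was not tested.

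By role, the core subunits of complex I had the lowest median among the structural groups, -0.84, and 4 of 7 were 1.5-fold lower. Ndufs3 had 206 CPM at E17.5 and 96.0 CPM in the adult (-1.09), and Ndufv1, which binds NADH and flavin, had 89.5 and 70.8 CPM (-0.33). Among the accessory subunits (median -0.59, 16 of 29 lower) the range was from Ndufab1, the mitochondrial acyl carrier protein, with 323 and 153 CPM (-1.08), to Ndufa3 with 67.3 and 71.6 CPM (0.09). In complex II (median -0.41, 2 of 4 lower) Sdhd had 135 and 80.1 CPM (-0.75) and Sdhc, the other membrane anchor, 63.1 and 64.4 CPM (0.03).

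Complex III had a median of -0.50, with 4 of 8 lower. Uqcrfs1, the Rieske iron-sulfur protein, had 306 CPM at E17.5 and 153 CPM in the adult (-0.995), whereas Uqcrq, the highest of complex III in the comparison of the embryonic libraries, had 414 and 415 CPM (0.00). In complex IV (median -0.40, 2 of 12 lower, 1 higher) Ndufa4, named for complex I but now counted in complex IV, had 554 and 319 CPM (-0.79). Cox7a1 was the single nuclear member that was 1.5-fold higher, with 11.4 and 65.6 CPM (2.43, interval 2.21 to 2.86). In ATP synthase (median -0.51, 6 of 15 lower) Atp5g2 had 707 and 254 CPM (-1.47), the lowest ratio of any structural subunit with at least 200 UMIs, and Atp5k, the e subunit, had 93.2 and 116 CPM (0.32). The assembly group had a median of -0.79, with 8 of 14 lower. Sdhaf1, an assembly factor of complex II, had 79.4 and 27.1 CPM (-1.52) and Sdhaf2, another, had 37.5 and 30.04 CPM (-0.31).

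Among the mt- genes, subunits of complex I had the highest ratios. mt-Nd3 had 146 CPM at E17.5 and 887 CPM in the adult (2.59), mt-Nd1 614 and 3018 CPM (2.30), and mt-Nd2 781 and 3715 CPM (2.25). mt-Co3 of complex IV (4412 and 12686 CPM, 1.52) and mt-Nd5 (327 and 931 CPM, 1.51) followed. The 6 ratios from mt-Cytb (1.22) and mt-Nd6 (1.22) down through mt-Atp6 (1.08), mt-Nd4 (1.07), mt-Co2 (1.06) and mt-Co1 (1.03) were close together, and mt-Nd4l (0.87) and mt-Atp8 (0.52) were lowest. mt-Atp8, mt-Atp6 and mt-Co3 overlap on the same strand, as do mt-Nd4l and mt-Nd4, so that reads in the overlaps make the split among them uncertain.

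In the same comparison 2 of 13 regulators of biogenesis with a value were higher and 2 lower (median 0.05). Lrpprc, which stabilizes mitochondrial mRNAs, had 232 CPM at E17.5 and 34.8 CPM in the adult (-2.70), and Tfam, which packages mitochondrial DNA, had a ratio of -0.47. Esrra (0.43) and Nrf1 (0.49) were highest among those with at least 200 UMIs, and neither passed 1.5-fold. Complex IV assembly genes had a median of -0.10, with 6 of 16 lower and none higher, from Coa3 (-1.04) and Cox19 (-0.77) to Cox20 (0.21) and Sco2 (0.58). In the citric acid cycle 3 of 16 were lower and 1 higher (median -0.30), from Suclg1 (-1.09) and Fh1 (-0.96) to Cs (0.52) and Ogdh (0.91). Glycolysis had a median of -0.69, with 11 of 17 lower and 3 higher, from Pgam1 (-1.82) and Pgk1 (-1.47) to Pfkp (0.71) and Hk2 (1.27).

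Other epithelial cells gave a second view of adult and E17.5 (402 and 2011 cells). The nuclear median was -0.31, with 21 of 91 members 1.5-fold lower and 2 higher, where all 12103 features had 38.2% lower and 8.54% higher. That direction depends on the scaling: the median was 0.06 under TMM and 0.11 when the most abundant genes were left out of the total. The higher pair were Cox7a1 (14.4 CPM at E17.5 and 66.5 CPM in the adult, 2.13) and the complex I subunit Ndufa1 (125 and 226 CPM, 0.85). The mt- median was 0.82, with 9 of 13 higher, and 0.07 with 2 higher under the stricter cell filter (1000 genes, 10% mt- UMIs). In narrower classes the nuclear medians were close to 0, at 0.10 in crypt stem-like and 0.20 in enterocyte-like cells, while the mt- medians were 1.29 and 1.05. The adult cluster called crypt stem-like was led by cycling genes such as Mki67 and the E17.5 clusters by Olfm4.

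The third comparison set irradiated enteroendocrine-like cells (1708 cells) beside adult ones (2222 cells), the same adult cells as in the second. Nuclear members lay slightly above 0, with a median of 0.15 and 77 of 90 over 0, but just 1 was 1.5-fold higher, Cox6b2, and 1 lower, Cox7a1. Among all 11364 features 4.64% were higher and 7.23% lower, with a median of 0.04. Without the clusters of low depth, which held 56.7% of adult and 16.0% of irradiated cells of the class, the nuclear median was -0.00. The mt- median was -0.33, with 3 of 13 over 0. Without the clusters of low depth it was 0.01. Irradiated clusters of 76 and 71 cells, also of low depth, were set aside by the naming rule. Their leading genes, such as Nts and Adgrd1 or Stxbp5l and Snap25, also led adult clusters that were kept. With all clusters set aside put back in their first class, the nuclear median was 0.16 and the mt- median -0.33.

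Cox7a1 had 65.6 CPM in adult and 40.7 CPM in irradiated enteroendocrine-like cells, a ratio of -0.68 with an interval of -0.84 to -0.54, and Cox6b2 had 2.11 and 5.74 CPM (1.12). The other structural subunits stayed within 1.5-fold. Extremes with at least 200 UMIs were Atp5g2 in ATP synthase (254 and 365 CPM, 0.52) and Atp5e, its epsilon subunit (628 and 609 CPM, -0.04), and in complex IV Cox6a1 (221 and 290 CPM, 0.39). In complex I they were Ndufa8 (119 and 155 CPM, 0.39) and Ndufb2 (175 and 159 CPM, -0.13) among accessory subunits, and Ndufs8 (0.32) and Ndufs7 (0.06) among core ones. Sdhd (0.38) and Sdhb (0.07) bounded complex II, Uqcrc2 (0.31) and Uqcr10 (-0.10) complex III, and Ndufaf3 (0.42) and Ndufaf8 (-0.13) the assembly group. Role medians ran from 0.08 in complex IV to 0.22 in complex II.

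Other genes of energy metabolism were as close in this pair, with few exceptions. Among regulators 1 of 14 was higher and 1 lower (median -0.13), and neither had 200 UMIs. Among regulators that did, Nrf1 (-0.24), Lrpprc (-0.21), Esrra (0.22) and Tfam (0.30) bounded the range. Of the complex IV assembly genes Cox17 was lower, at 216 CPM in the adult and 131 CPM after irradiation (-0.72), and the other extremes were Cycs, cytochrome c itself (-0.08), Surf1 (0.27) and Coa5 (0.38). In the citric acid cycle 1 of 16 was higher (median 0.02), Suclg2 (0.67), beside Fh1 (0.39), Dlst (-0.18) and Idh3b (-0.24). In glycolysis 2 of 17 were higher (median 0.09): Gapdh had 251 and 494 CPM (0.97) and Eno1 12.2 and 45.1 CPM (1.80). Slc2a1, a glucose transporter (-0.51), and Pfkl (-0.25) were lowest.

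In other epithelial cells the irradiated library differed from the adult far more. The nuclear median was -1.12 (548 and 402 cells): 86 of 90 members were 1.5-fold lower and 1, Cox6b2, was higher. Among all 10097 features 36.0% were lower and 11.1% higher, with a median of -0.37. TMM scaling moved the median of all features by 0.33, to 17.8% higher and 19.8% lower, and the nuclear median to -0.77. The mt- median was -1.24, with 11 of 13 lower and none higher. Paneth markers were 21.9% of UMIs in the irradiated cells and 13.1% in the adult, and goblet markers 4.88% and 0.548%. What these differences in cell mixture contribute was examined only within classes. In Paneth-like cells the nuclear median was -1.45, with 78 of 81 lower where 48.8% of all features were. All features there had a median of -0.56. In enterocyte-like cells the nuclear median was -0.81, with 60 of 89 lower where 17.9% of all features were, and all features had a median of 0.32. TMM and the other scalings were not computed within these classes. The mt- medians were -1.98 and -0.55.

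Both within-class pairs joined unlike clusters. The adult Paneth-like class (median 2946.5 UMIs) held a cluster of 146 cells with a median of 1912.5 UMIs, and the irradiated one had a median of 99299 UMIs. The adult enterocyte-like cluster was led by Reg1, Apoa4 and Reg3b, and the irradiated one by Apoa4, Ccnd1, Ces2e and Ube2c, the last being a cell-cycle gene. Ribosomal protein genes took 10.2% of UMIs in the former and 20.3% in the latter. Their part in the ratios was not tested.

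Tuft-like cells had higher medians than enteroendocrine-like cells of the same library on both genomes. In the adult the nuclear median was 0.68 above and the mt- median 0.96 above, with 48 of 89 nuclear members higher where 15.7% of all features were. In the irradiated library the nuclear median was 0.24 above, with 18 of 90 higher where 11.98% were, and the mt- median 1.18 above. That tuft-like class (4482611 UMIs) took 2978161 and 25191 UMIs from clusters that also held enteroendocrine markers. Its remaining cluster had 3.06% nuclear and 15.0% mt- UMIs, against 2.14% and 5.09% in irradiated enteroendocrine-like cells. Beside the adult tuft-like nuclear share of 3.99%, the adult enteroendocrine-like clusters of low depth had 0.972% to 1.24% and the others 1.99% to 2.54%. Their mt- shares were 10.4% to 13.5% and 3.73% to 5.61%, against 13.1% in adult tuft-like cells. Members with high levels, picked after their values were seen, included Atp5e (1902 CPM, against 628 CPM in enteroendocrine-like cells), Cox6c of complex IV (1923 and 683 CPM), Ndufa13 of complex I (1298 and 353 CPM), Ndufv3 (753 and 225 CPM) and Ndufa1 (742 and 227 CPM). Ndufa13 overlaps Yjefn3 on the same strand, so its count is uncertain. mt-Atp6 reached 30258 CPM and mt-Co3 24614 CPM, against 13103 and 12686 CPM.

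Of the 482 irradiated tuft-like cells, 195 and 15 came from clusters in which enteroendocrine markers took 4.57% and 5.47% of UMIs, against 0.152% in the remaining 272 cells and 0.0555% to 0.0704% in the adult tuft-like clusters. With all of them, the irradiated over adult nuclear median was -0.31, with 33 of 83 lower and 4 higher where 9.14% and 32.7% of 8289 features were, and the mt- median -0.06. TMM scaling moved the median of all features by -0.31, to 20.7% higher and 19.3% lower, the nuclear median to -0.63 with 46 lower and 1 higher, and the mt- median to -0.38. Enterocyte markers, all 13 detected, took 2.23% of UMIs in adult and 0.737% in irradiated tuft-like cells, against 0.291% in adult enteroendocrine-like cells. Their part in the ratios was not tested. Without the mixed clusters, an alternative added after seeing the data, the nuclear median was -0.22, with 13 lower and 1 higher where 5.26% and 7.62% of features were, and the mt- median was 0.16.

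In this class the shorter members tended to have the lower ratios. Over 83 members, the Spearman correlation between transcript length and ratio was 0.54, and 0.57 without the mixed clusters, against 0.03 and -0.04 over the other genes. The points are genes of the same pair of libraries and are not independent. Without the mixed clusters the 42 shorter members had a median of -0.38 and the 41 longer ones -0.01. Among the short ones Atp5e had 1902 CPM in the adult and 1085 CPM after irradiation (-0.81), and Uqcr10 892 and 512 CPM (-0.80). Cox7b, one of the longer members (1001 bases), went against the pattern with 786 and 402 CPM (-0.97). Uqcrc2 (87.4 and 117 CPM, 0.42) and Ndufv2 (89.4 and 120 CPM, 0.42) were among the highest. These 5 were chosen after their values were seen. In the other 5 comparisons the correlation ran from -0.28 to 0.26.

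The makeup of the mt- RNA differed between libraries in a way that held across cell classes. mt-Co1 (mitochondrial genome, 5328 to 6872, plus strand) took 10.2% of mt- UMIs at E12.5. It took 5.16% to 8.83% over 8 named classes at E17.5, 5.25% to 7.82% over 5 adult classes and 15.2% to 18.4% over 5 irradiated classes. The irradiated range did not overlap any other library's, and in irradiated tuft-like cells without the mixed clusters the share was 13.8%, still above the others. In enteroendocrine-like cells mt-Co1 had 2214 CPM (E17.5), 4514 CPM (adult) and 8153 CPM (irradiated), a ratio of 0.85 for the last pair, while 10 other mt- genes had ratios under 0. It was the highest of the mt- ratios there, and over all alternatives it lay between 0.68 and 1.22. In tuft-like cells it had 10275 CPM in the adult and 19879 CPM after irradiation.

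Per cell, mt-Co1 took a median of 7.36% of mt- UMIs in the adult, with 5th and 95th percentiles of 4.13% and 12.2%, and 15.9% in the irradiated adult, with 10.1% and 22.0%. Depth moved this share less than the gap between these libraries: among irradiated cells that passed the filter it was 15.1% under 3000 UMIs and 16.2% at 10000 UMIs or more, and among adult cells 7.70% and 6.03%. At E12.5 the same shares were 7.10% and 10.3%. No library preparation or animal is replicated, so irradiation and library cannot be told apart here.

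Another mt- gene set E17.5 apart. mt-Nd3 took 1.42% of mt- UMIs at E12.5, 0.502% to 0.744% at E17.5, 1.05% to 1.45% in adult and 1.31% to 1.77% in irradiated classes, so that E17.5 was below every other library. mt-Atp6 took 23.8%, 23.8% to 28.0%, 21.4% to 25.3% and 18.4% to 21.5%. mt-Nd6, the single member encoded on the opposite strand from the other 12, had ratios of -0.48, 1.22 and -0.98 in the 3 comparisons, with 33.2 CPM at E12.5 and 23.5 CPM at E17.5 in other epithelial cells, and 10.97, 26.8 and 13.1 CPM in enteroendocrine-like cells of E17.5, adult and irradiated libraries. For the last pair mt-Nd4 had 5931 and 3719 CPM (-0.67), mt-Nd5 931 and 659 CPM (-0.50), mt-Atp6 13103 and 9384 CPM (-0.48), mt-Cytb 6629 and 4863 CPM (-0.45) and mt-Nd2 3715 and 2765 CPM (-0.43). mt-Nd3 (0.02) and mt-Nd4l (0.25) had ratios over 0 beside mt-Co1.

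**Figure D3:**
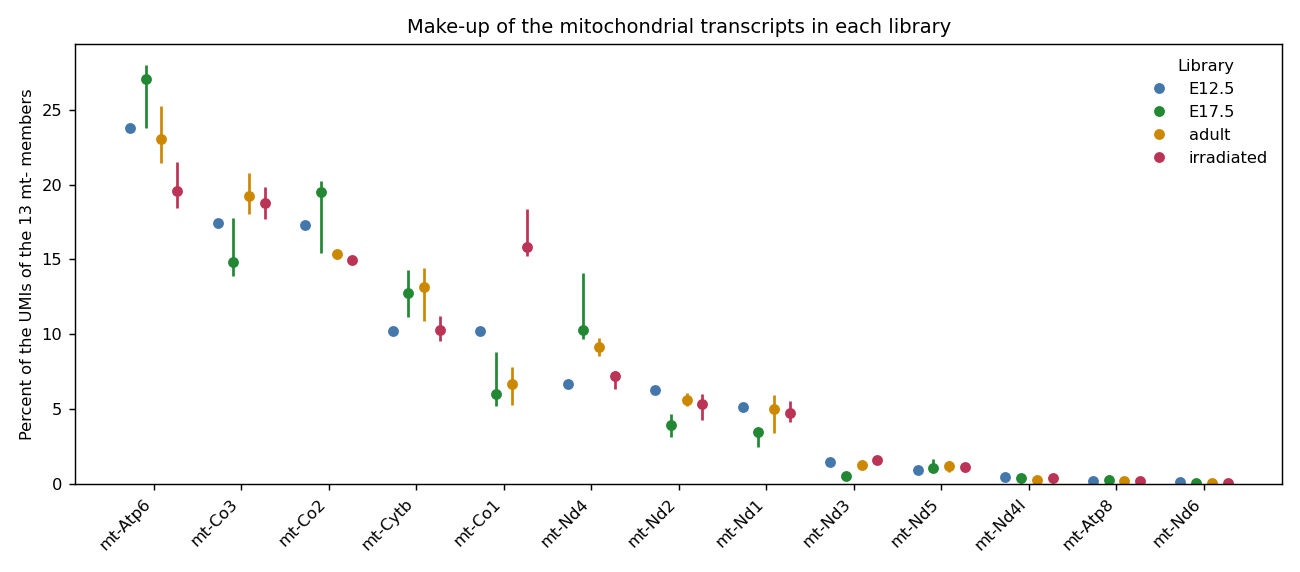
Percent of all mt- UMIs taken by each mt- gene in each library; the point is all kept cells and the line is the range over named classes (E12.5 has 1 class). mt-Co1 lies at 15.2% to 18.4% in the irradiated library and below 10.3% in the others, and mt-Nd3 is lowest at E17.5.

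Across clusters, the nuclear share (of UMIs outside mt- genes) and the mt- share moved together at E17.5 but not elsewhere. The Spearman correlation was 0.85 over 22 clusters at E17.5, -0.63 over 13 at E12.5, 0.13 over 13 adult clusters and 0.05 over 17 irradiated ones. Clusters of a library share its preparation, and both shares come from the same cells. Within enteroendocrine-like cells the correlation over cells was 0.26 at E17.5, -0.52 for adult and -0.50 for irradiated cells, where in both adult libraries low depth and a high mt- share went together.

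**Figure D4:**
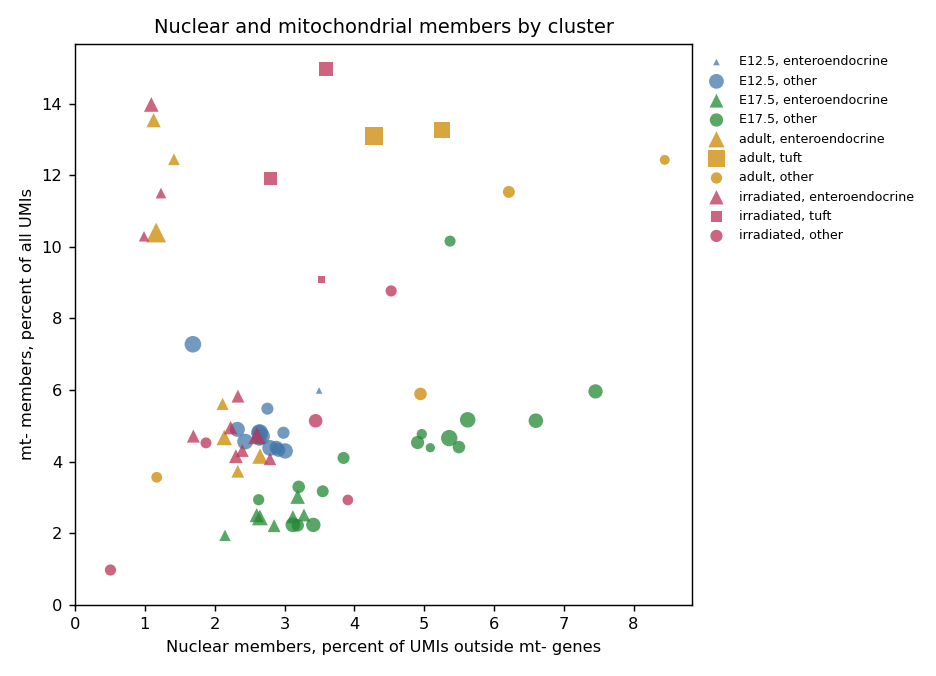
Each symbol is 1 cluster, placed by the nuclear members' percent of non-mt UMIs (x) and the mt- percent of all UMIs (y), with size by cell number; triangles are enteroendocrine-like and squares tuft-like clusters. Adult enteroendocrine-like clusters split into a group of 3 with mt- shares of 10.4% to 13.5% and low nuclear shares, and the rest with 3.73% to 5.61%.

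Isoform genes of complex IV were unevenly spread over cell classes. Cox7a1 had 2.15 CPM in E12.5 other epithelial cells. At E17.5 it had 6.56 CPM in crypt stem-like, 8.44 in goblet-like, 11.4 in enteroendocrine-like and 27.8 in enterocyte-like cells. In the adult it had 4.24 CPM in Paneth-like, 22.8 in tuft-like, 29.1 in crypt stem-like, 65.6 in enteroendocrine-like and 308 in enterocyte-like cells. In the irradiated adult it had 2.94 CPM in Paneth-like, 11.6 in goblet-like, 24.1 in enterocyte-like, 30.6 in tuft-like and 40.7 in enteroendocrine-like cells. Without the clusters that also held enteroendocrine markers, the irradiated tuft-like value was 11.5 CPM, below the adult one. Enterocyte-like cells thus had the highest level at E17.5 and in the adult, but not in the irradiated library. The irradiated enterocyte-like cluster was led in part by cell-cycle genes such as Ube2c, unlike the adult one. Of the summed Cox7a1 and Cox7a2 (the widespread isoform) UMIs, Cox7a1 made up 0.57% at E12.5, 14.5% in adult enterocyte-like, 13.2% in adult and 8.43% in irradiated enteroendocrine-like, and 2.93% in irradiated enterocyte-like cells.

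With each cell thinned to 2000 UMIs, Cox7a1 was seen in 42.0% of 50 adult enterocyte-like cells (exact binomial 95% interval 28.2% to 56.8%) and in 2.65% of adult Paneth-like cells. The shares were 8.06% (6.83% to 9.45%) of 1736 adult and 7.997% (6.71% to 9.44%) of 1588 irradiated enteroendocrine-like cells, and 1.41% of 1063 at E17.5. The adult and irradiated intervals overlap, but they cover counting error only and each comes from 1 library. In summed CPM the log2 ratio of irradiated over adult was -0.68 in this class. Before thinning the shares of cells were 89.5% in adult enterocyte-like cells, and 15.8%, 24.2% and 7.31% in the enteroendocrine-like cells, with median depths of 31823, 3191, 9541 and 6645.5 UMIs. Thinning left out 486 of 2222 adult enteroendocrine-like cells that had fewer UMIs and kept 1588 of 1708 irradiated ones, so the cells compared were selected to unlike degrees.

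Cox6b2 had another pattern. It was highest in irradiated enterocyte-like cells, with 58.0 CPM from 287 UMIs, and in E17.5 mesenchymal-like cells, with 55.3 CPM. Epithelial cells without a lineage name had 24.4 CPM at E17.5. Adult enterocyte-like cells held a single UMI (0.490 CPM), and the other adult classes lay between 1.96 and 9.60 CPM. In irradiated enterocyte-like cells it made up 5.03% of the summed Cox6b1 and Cox6b2 UMIs, against 0.03% in the adult ones and 2.00% at E12.5. Adult crypt stem-like cells had 0.75% and adult Paneth-like cells 1.52%. The irradiated and adult enterocyte-like clusters are unlike, as given above, so the pair is not a comparison within 1 cell type. Cox6b2 was seen in 64.5% of the irradiated enterocyte-like cells, and in 8.99% of 89 thinned ones (3.96% to 16.95%).

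**Figure D5:**
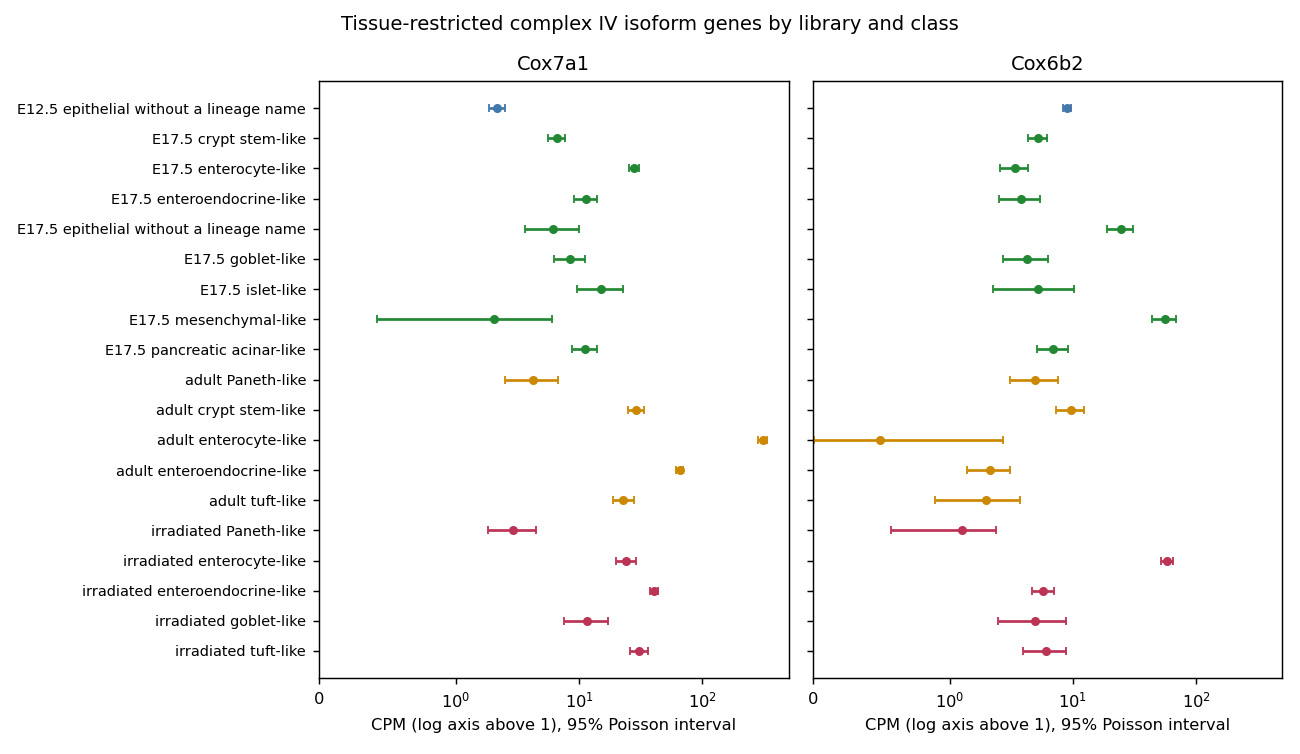
CPM of Cox7a1 and Cox6b2 in each cell class of each library, with exact Poisson 95% intervals that cover counting error only; the axis is linear near 0 and logarithmic above. Cox7a1 peaks in adult enterocyte-like cells (308 CPM) and Cox6b2 in irradiated enterocyte-like (58.0 CPM) and E17.5 mesenchymal-like cells (55.3 CPM).

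Other minor isoforms were rare in epithelial classes. Ndufa4l2, a relative of Ndufa4 (chromosome 10, 127514967 to 127517154, plus strand), had 76.5 CPM in E17.5 mesenchymal-like cells and at most 3.87 CPM in any other class. Cox4i2 had 4.10 CPM in the same cells. Cox8b and Cox8c had 0 UMIs in every library, which allows up to 0.0365 CPM in the E12.5 library and 0.101 CPM in the adult (3 counts).

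The c subunit of ATP synthase is encoded by Atp5g1, Atp5g2 and Atp5g3, whose mature proteins are the same. In other epithelial cells Atp5g2 gave 46.4% of the UMIs of all 3 genes (E12.5), 30.4% (E17.5), 21.8% (adult) and 26.0% (irradiated). Atp5g1 gave 31.5%, 44.9%, 50.1% and 45.2%. In these summed cells Atp5g2 thus led at E12.5 and Atp5g1 in the later libraries. Single classes could differ: in E17.5 epithelial cells without a lineage name Atp5g2 gave 46.8% and Atp5g1 30.9%. In irradiated tuft-like cells Atp5g3 gave 40.3% and Atp5g1 39.3%. Without the mixed clusters, however, Atp5g1 led there, with 401 CPM against 326 CPM for Atp5g3 and 185 CPM for Atp5g2. In enteroendocrine-like cells Atp5g2 gave 33.1% (E17.5), 20.9% (adult) and 25.3% (irradiated), Atp5g1 38.3%, 44.0% and 40.2%, and Atp5g3 28.6%, 35.1% and 34.5%. These are shares of 3′ UMIs and are not scaled by transcript length.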

How the data were processed

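The deposited files were 4 matrices, 1 for each library, of raw UMI counts (whole numbers, not normalized) by gene and barcode. Cell Ranger 3.1.0 and mm10 are named in the submitters' processing notes; how barcodes were selected is not given in the sources used here. Gene positions and transcript lengths came from GENCODE M21 (GRCm38). The members, marker lists and pathway lists were chosen with earlier results of these data known.

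Cells with at least 500 genes and at most 20% mt- UMIs were kept. Scrublet's automatic doublet threshold marked 0% to 0.565% of cells, too few to rely on, so the highest-scoring cells were removed at 0.8% per 1000 barcodes. Each library was clustered on its own without members and mt- genes (2000 variable genes, 30 components, 20 neighbours, Leiden resolution 1). Clusters were named by their best-scoring marker list, provided that the score was at least 0.5 and at least 3 markers reached 50 CPM and 10% of its cells. Those markers also had to reach the library's own mean level. The general epithelial list was not scored against the others. Clusters that met no list were called epithelial, with no score limit, where at least 3 general epithelial markers reached 50 CPM and 10% of cells. Every E12.5 cluster called epithelial was named in this way. These thresholds were set after the clusters had been seen, so names may differ from the study's. Clusters set aside as unnamed (low UMIs, or markers of 2 classes) stayed in other epithelial cells where their first class was epithelial: 446 and 227 cells at E12.5, and 201 and 77 in the irradiated library. Others were left out, among them 370 cells at E17.5 and 146, 76 and 71 in the irradiated library.

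UMIs were summed over cells, so deep cells weigh more. Ratios are log2 of CPM with 1 CPM added, over features with at least 50 UMIs in either group, and 1.5-fold is the limit for higher or lower. Levels carry exact Poisson and shares exact Clopper-Pearson 95% intervals, which cover counting error only. Named genes are the highest and lowest of each role and comparison with at least 200 UMIs in the higher group, all 13 mt- genes, isoform genes, and the 2 highest and 2 lowest of each pathway list. Alternatives were other cell filters, doublets kept, members kept in the clustering, resolutions 0.5 and 2, no clusters, cells of at least 3000 UMIs, edgeR TMM factors, totals without mt- or without abundant genes, the mean over cells, pseudocounts of 0.1 and 10, minimums of 10 and 500 UMIs, structural subunits only, and thinning to 1000 UMIs or none. The steps were tested on simulated data. Tools were scanpy 1.11.5 with leidenalg 0.10.2, igraph 0.11.9 and scikit-learn 1.9.0, edgeR 4.0.16 in R 4.3.3, and pandas 2.3.3, numpy 2.4.6, scipy 1.17.1 and matplotlib 3.10.9 in python 3.11.15. Sequencing reads were not used here.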

Additional observations from a re-analysis of the deposited data

Results flagged for a closer look

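Nuclear members had a median log2 ratio of irradiated over adult of 0.15 in enteroendocrine-like cells and of -1.12 in other epithelial cells, opposite signs in the 2 classes. The first sign does not hold in every setting: the median was -0.001 without enteroendocrine-like clusters of low depth and -0.59 over all kept cells. The difference between the classes was not tested, since each group has 1 library.

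In barcodes that the cell filter left out, the irradiated library also had a high share of mt-Co1 among mt- UMIs. It was 12.9% in 947 irradiated barcodes with fewer than 500 genes, against 6.28% in 1245 such adult barcodes. In barcodes with at least 500 genes and over 20% mt- UMIs it was 13.3% (1865 irradiated barcodes) against 5.62% (1254 adult barcodes).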

How the results depend on the processing

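No paired analysis was possible because the labels give no replicate numbers and 1 library per group. Of 106 alternative values of the 6 main medians, 71 stayed within the counting interval and 35 moved. In each case below the cause was not tested. E17.5 over E12.5, nuclear (1.00): all kept cells 0.83, TMM 1.31, pseudocount 10 0.96, minimum 10 UMIs 0.98, structural subunits 1.09; mt- (-0.21): no mt- limit -0.32, stricter cell filter (1000 genes, 10% mt-) -0.22, all kept cells -0.38, TMM 0.11, mean over cells -0.22. Adult over E17.5 enteroendocrine-like, nuclear (-0.54): stricter filter -0.39, cells of at least 3000 UMIs -0.44, totals without abundant genes -0.44, mean over cells -0.85, without clusters of low depth -0.37; mt- (1.22): no mt- limit 1.62, stricter filter 0.56, doublets kept 1.27, all kept cells 1.05, cells of at least 3000 UMIs 0.98, TMM 1.29, totals without abundant genes 1.31, mean over cells 1.57, without clusters of low depth 0.61. Irradiated over adult enteroendocrine-like, nuclear (0.15): all kept cells -0.59, mean over cells 0.37, without clusters of low depth -0.001; mt- (-0.33): no mt- limit -0.17, stricter filter 0.078, resolution 0.5 -0.30, all kept cells -0.63, cells of at least 3000 UMIs -0.16, totals without abundant genes -0.36, mean over cells -0.46, without clusters of low depth 0.013. The settings without clusters of low depth were added after seeing the data.

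Counts past 1.5-fold that moved by over 1.5 times and by more than 1 member include these. Shares of all features beside these counts were computed only for the main setting, TMM, the other totals and the mean over cells. For adult over E17.5 enteroendocrine-like cells, nuclear members lower were 42 and, without clusters of low depth, 23, and mt- members higher were 12 and 6 under the stricter filter. For irradiated over adult enteroendocrine-like cells, 1 nuclear member was lower but 45 over all kept cells, 1 higher but 12 with the mean over cells, and mt- members lower were 2 but 0 under the stricter filter and 9 over all kept cells. For E17.5 over E12.5, mt- members higher were 1 but 4 under TMM, and lower 2 but 5 over all kept cells. In adult over E17.5 other epithelial cells the nuclear members lower were 21 but 4 under TMM and 59 under the stricter filter (median -0.73); in irradiated over adult other epithelial cells they were 86 but 45 over all kept cells. In adult over E17.5 other epithelial cells, mt- members higher were 9 but 4 as a mean over cells, or 2 under the stricter filter, and nuclear members higher 2 but 6 with totals without abundant genes. In tuft-like cells, mt- members lower were 1 but 9 over all kept cells, mt- members higher 1 but 3 with no mt- limit, and nuclear members higher 4 but 1 with no mt- limit. The irradiated tuft-like class had 30 cells under the stricter filter and gave no value there. Of 1355 alternative values of named members 512 moved and none of those past 1.5-fold changed sign.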

Other observations

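At E12.5 the share of mt-Co1 among mt- UMIs differed between kept and left-out barcodes: it was 10.3% in barcodes that passed the cell filter, 6.15% in those with fewer than 500 genes and 5.70% in those with over 20% mt- UMIs. At E17.5 the same 3 shares were 5.99%, 5.51% and 5.33%.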
